A study of Mus musculus with 4 samples.

Results

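*Cdh20* (ENSMUSG00000050840.8) is the gene with the most peaks in the LHX5-FLAG ChIP-Seq list. Its members were taken as every row of this list that names *Cdh20* as the nearest downstream gene, which gave 4 of 545 peaks. The gene was chosen by its number of assigned peaks, so this number is given as a description. The next gene, *Gm10479*, had 3 peaks and 29 genes had 2. Beside them stood the 56 peaks of the FLAG-only list, of which 0 lay within 2 Mb of the 4 peaks.

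The experiment used Neuro2a, a mouse neuroblastoma line labelled with the strain C57BL/6. One line was stably transfected with *Lhx5* carrying a FLAG tag at the C-terminal end, under the Tet-On system (Ptight promoter), from clones selected for even expression, and was treated with doxycycline for 24 h. The control cells carried a construct for the FLAG tag alone, and their doxycycline treatment is not given in the sources used here. Of 4 libraries, an anti-FLAG and an input library from each kind of cell, the anti-FLAG libraries have a peak list, so no value has a replicate and intervals cover counting error only. The lists give positions and no read counts or peak heights, so the depth is unknown and the peaks cannot be ranked by strength. The peaks are tagged, induced protein on cell line chromatin, and the lists hold no measurement of *Cdh20* RNA. By microarray, the study reported lower *Cdh20* RNA in mamillary tissue of *Lhx5* mutant embryos than of wild type. That tissue differs from the cell line, and those values were not analysed here.

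*Cdh20* encodes a type II classical cadherin, a membrane protein that binds cadherins of neighbouring cells in the presence of calcium. Type II cadherins are expressed in combinations that differ between brain nuclei and take part in the sorting of neurons. LHX5 is a LIM-homeodomain transcription factor. Homeodomains bind short AT-rich DNA with a TAAT core, often as the palindrome TAATTA, and regulatory elements of developmental genes can lie far from the promoter in long stretches without genes.

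The 4 peaks lay on chromosome 1, upstream of *Cdh20*, and were numbered from the farthest to the nearest. They are shown whole because they differ from one another in the sites they hold. They were read 5′ to 3′ from the plus strand of the NCBIM37 (mm9) reference, not from the cells, and capitals mark each TAATTA. Peak 1 is chr1:105219677-105219857, peak 2 is chr1:105512232-105512427, peak 3 is chr1:105748521-105748716 and peak 4 is chr1:105868799-105868944.
Peak 1: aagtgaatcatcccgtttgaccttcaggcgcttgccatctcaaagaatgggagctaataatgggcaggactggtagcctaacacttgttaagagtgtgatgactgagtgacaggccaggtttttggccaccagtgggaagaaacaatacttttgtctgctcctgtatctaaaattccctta
Peak 2: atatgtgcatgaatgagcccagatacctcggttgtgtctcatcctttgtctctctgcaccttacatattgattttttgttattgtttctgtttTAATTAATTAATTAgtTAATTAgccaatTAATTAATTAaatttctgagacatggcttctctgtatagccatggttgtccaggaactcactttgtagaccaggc
Peak 3: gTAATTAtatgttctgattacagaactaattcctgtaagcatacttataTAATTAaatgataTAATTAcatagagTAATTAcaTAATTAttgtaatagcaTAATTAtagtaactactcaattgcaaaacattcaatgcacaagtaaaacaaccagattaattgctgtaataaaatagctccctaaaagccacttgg
Peak 4: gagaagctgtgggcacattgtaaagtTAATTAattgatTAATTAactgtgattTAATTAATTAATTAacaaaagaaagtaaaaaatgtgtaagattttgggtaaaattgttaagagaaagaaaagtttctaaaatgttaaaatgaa

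Peak 1 held no TAATTA. Peaks 2 and 3 held 6 each and peak 4 held 5. Here the 8-bp motif means CTAATTAA or TTAATTAA on either strand, a form of the core with fixed bases around it that overlaps TAATTA at every match. The study had searched these same peaks for enriched motifs. The motif used here was chosen with earlier results of these data known, so its shares only describe the lists. It was present at 6 places in peak 2, at 5 places in peak 4 and at none in peaks 1 and 3. Thus 2 of 4 peaks held the motif (95% exact binomial interval 6.76% to 93.2%), beside 36.3% of all 545 LHX5-FLAG peaks, 1.79% of the 56 FLAG-only peaks and 1.01% of 1086 windows that had the same lengths and began 10 kb beyond the edges of LHX5-FLAG peaks. With 4 peaks this interval is too wide to set their share apart from that of the whole list, of which they are part. The core TAATTA was present in 3 of 4 peaks, beside 42.4% of all LHX5-FLAG peaks, 8.93% of the FLAG-only peaks and 5.8% of the windows. Of the 8 windows that lay beside the 4 *Cdh20* peaks, 0 held the motif (0.0%) and 1 held a TAATTA (12.5%), to the right of peak 1.

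**Figure D1:**
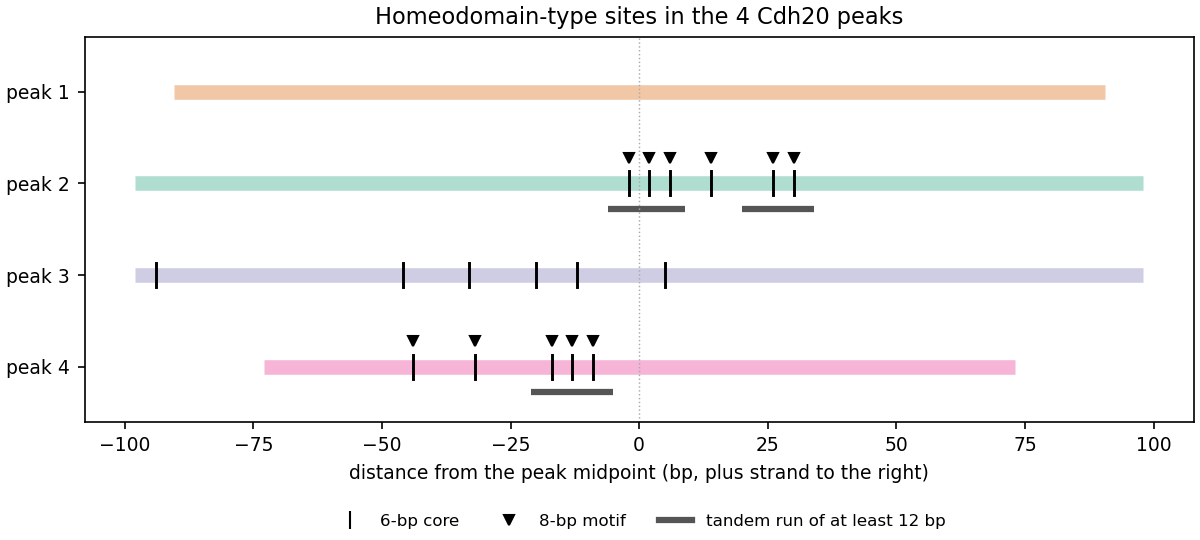
Each bar is 1 of the 4 *Cdh20* peaks drawn to scale around its midpoint (x axis, bp). Ticks mark the 6-bp core TAATTA, triangles the 8-bp motif and dark bars tandem runs of TTAA of at least 12 bp. Peak 1 has no mark, peak 3 has cores without the motif, and peaks 2 and 4 have their sites packed together.

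In peak 2 the sites lay within 38 bp from the first TAATTA to the last, with the centre of the first 2 bp to the left of the midpoint and the others to the right. Of the 6 motif sites, 4 read TTAATTAA and 2 read TTAATTAG, which is CTAATTAA on the minus strand. They belong in large part to 2 tandem runs of TTAA, of 15 and 14 bp, and 3 of the 5 steps between neighbouring cores were 4 bp. In peak 4 all 5 motif sites read TTAATTAA. They lay to the left of the midpoint, within 41 bp and at 9 bp or more from it, and the last 3 formed a run of 16 bp. Runs of TTAA of at least 12 bp were thus found in 2 of 4 peaks, beside 19.4% of all LHX5-FLAG peaks, 0.0% of the FLAG-only peaks and 0.184% of the windows beside LHX5-FLAG peaks.

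Peak 3 had as many cores as peak 2 in another arrangement. Its 6 cores were spread over 105 bp, the nearest 5 bp from the midpoint, and no step between neighbours was shorter than 8 bp. With the base on each side, the cores read ATAATTAT (2), ATAATTAA (1), ATAATTAC (1), GTAATTAC (1) and GTAATTAT (1). None of these is the motif, and with 1 mismatch allowed the peak held the motif at 1 place. In this looser form the motif was present in 3 of 4 peaks, beside 49.2% of all LHX5-FLAG peaks, 30.4% of the FLAG-only peaks, 22.7% of the windows and 25.0% of the windows beside the *Cdh20* peaks. The 4-bp word TAAT, on either strand, occurred at 18 places in peak 3, or 9.18 per 100 bp. It occurred at 6.63 per 100 bp in peak 2, at 8.22 in peak 4 and at 1.1 in peak 1, and the median of all LHX5-FLAG peaks was 1.27. The first peak therefore lay just below the middle of the list and the other three lay above it. Ranked by the number of cores, peaks 2 and 3 stood 15th (tied) and peak 4 stood 37th (tied) among the 545 peaks.

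The peaks shared little sequence apart from these sites. Between peaks 2 and 4, 5 words of 12 bp were common, on either strand, and each of the 5 held 8 bp of the TTAA repeat. The other 5 pairs of peaks had 0 words of 12 bp in common.

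The base composition separated the peaks in the order of their position. GC content was 45.3% in peak 1, 35.2% in peak 2, 26.0% in peak 3 and 22.6% in peak 4. The median of all LHX5-FLAG peaks was 42.4% and that of the FLAG-only peaks 47.35%. Peak 4 was the 20th lowest of 545 and peak 3 the 45th lowest, whereas peak 1 was the 329th lowest. The surroundings followed this only in part, with 42.9%, 36.9%, 37.9% and 35.1% GC in the 10 kb around peaks 1 to 4. Peak lengths were ordinary, 181, 196, 196 and 146 bp, beside a median of 173 bp in the list.

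**Figure D2:**
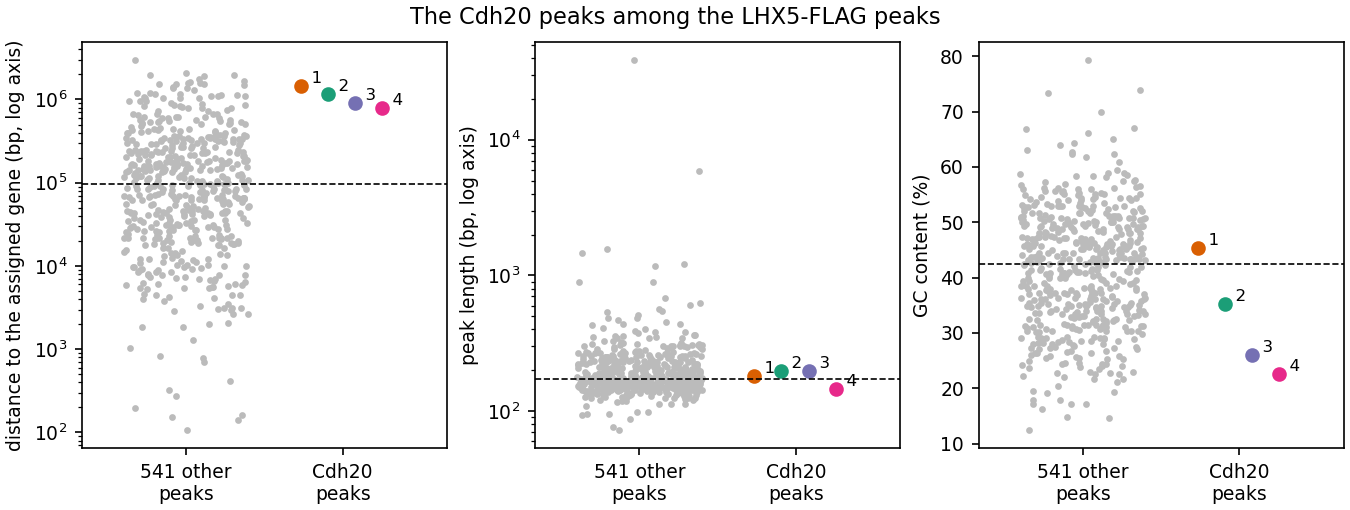
Distance to the assigned gene, peak length (both on log axes) and GC content of the 4 *Cdh20* peaks (coloured, numbered) beside the other LHX5-FLAG peaks (grey, spread sideways at random). Dashed lines are medians of all 545 peaks. The 4 peaks are far from their gene, of usual length, and differ in GC content from 22.6% to 45.3%.

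Sequence that occurs many times in the genome limits where a short read can be placed. Each 32-bp word of the peaks was therefore counted on both strands of the mm9 chromosomes. In peaks 3 and 4 every word occurred once, and in peak 2 98.8% did. In peak 1 it was 47.3%, and the commonest word, at its right end (bases 150 to 181), occurred 112 times. Thus 2 of 4 peaks held a repeated word, beside 39.8% of all LHX5-FLAG peaks, and 1 of 4, beside 20.6%, had fewer than 50% of its words at a single place. With words of 50 bp the share of peak 1 rose to 67.4%. No other peak of either list shared a 32-bp word with any of the 4 peaks. Words of 20 bp were shared by peak 2 with 9 other LHX5-FLAG peaks and 1 FLAG-only peak. Peak 4 shared them with 5 other LHX5-FLAG peaks, and peaks 1 and 3 with 0. The right end of peak 2 held shorter repeated sequence. A word of 20 bp there (bases 175 to 194) occurred 40165 times, in a stretch that resembles the B1 element, a short interspersed repeat of the mouse. In all, 14 words of 20 bp in peak 2 had at least 100 copies, 4 over bases 93 to 115 and 10 over bases 168 to 196. The first of these stretches includes the first TTAA run, while the words that hold the second run had between 1 and 7 copies. The methods do not say how reads that match several places were treated, and the part of repeated sequence in the calling of peak 1 was not tested.

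**Figure D3:**
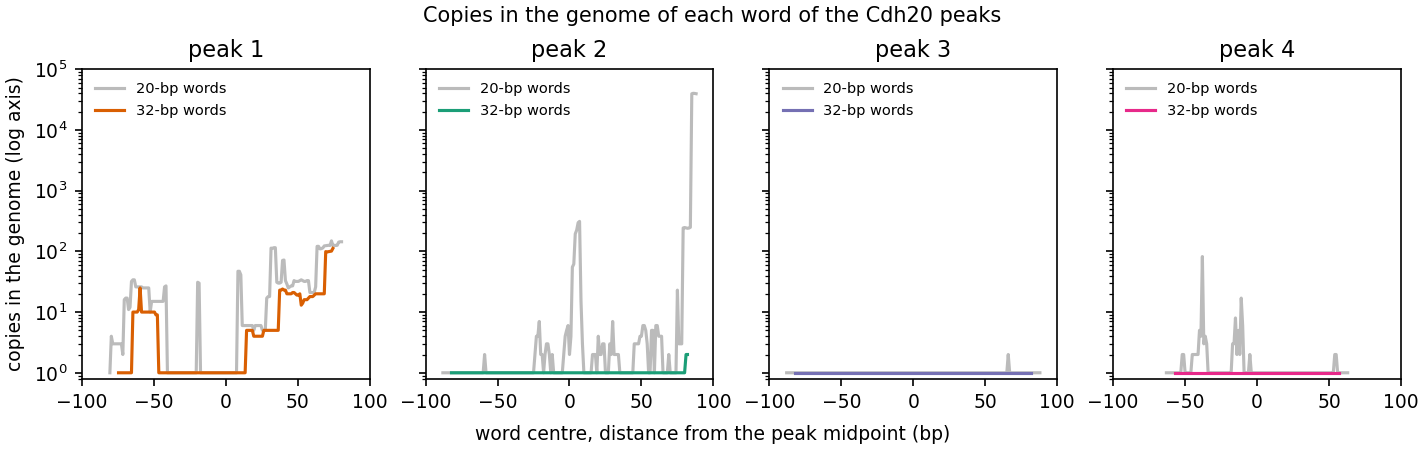
Copies in the genome (y axis, log scale, both strands of the mm9 chromosomes) of each 20-bp and 32-bp word along the 4 *Cdh20* peaks (x axis, bp from the midpoint). The 32-bp words of peaks 3 and 4 all occur once, and those of peak 1 occur up to 112 times.

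All 4 peaks lay outside annotated genes, in a long interval with little annotation. *Cdh20* has 1 annotated transcript of 12 exons and occupies 106665106 to 106892058 of the plus strand (mm9). To the left of the peaks, the first gene for a protein is *Cntnap5b*, which encodes a contactin-associated membrane protein of the neurexin family and ends at 102382519. The interval between them is 4.28 Mb long, has a GC content of 38.0% (genome 41.8%) and holds 7 annotated genes, all of small RNAs. The deposited distances to the start of *Cdh20* were 1445339 bp for peak 1, 1152776 bp for peak 2, 916487 bp for peak 3 and 796234 bp for peak 4. The median distance in the list was 95424 bp, and by distance, longest first, the 4 peaks ranked 15th, 23rd, 38th and 46th. Distances over 500 kb were found for all 4 peaks and for 14.5% of the list. Peak 1, the nearest of the 4 to *Cntnap5b*, was still 2837157 bp from the end of that gene. *Cdh20* was thus the protein-coding gene with the nearest start to each peak in either direction as well. The annotated gene nearest to peak 1 was a small nucleolar RNA gene (*SNORA17*) 86332 bp to its left, and the nearest to peak 4 a *7SK* RNA gene 513589 bp to its right.

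The 4 peaks covered a span of 649268 bp, with gaps of 292374, 236093 and 120082 bp between them. The gene body of *Cdh20* held 0 LHX5-FLAG peaks. The promoter, taken as the 300 bp that RefSeq gives around the gene start (GRCm38.p6), was found unchanged in NCBIM37. It held 0 motif and 0 core sites on either strand, beside 1.32% of all 32851 RefSeq promoters with the motif and 5.29% with the core. It had 4 places with TAAT and a GC content of 50.7%. The next LHX5-FLAG peak to the right of the gene, chr1:107627842-107627993, lay in *2310035C23Rik* and was assigned to *Tnfrsf11a*, a receptor of the tumour necrosis factor family. To the left, the next LHX5-FLAG peak was 14.9 Mb away, beside a median of 2.58 Mb for all 524 gaps between neighbouring peaks on a chromosome.

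In the cells with the FLAG tag alone, chromosome 1 had 6 peaks, and the nearest to a *Cdh20* peak was 32.9 Mb away. The number within 2 Mb of the 4 peaks was 0, also when 5 Mb was allowed. Of all LHX5-FLAG peaks, 8.44% had a FLAG-only peak within 2 Mb, so most of the list had none either.

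**Figure D4:**
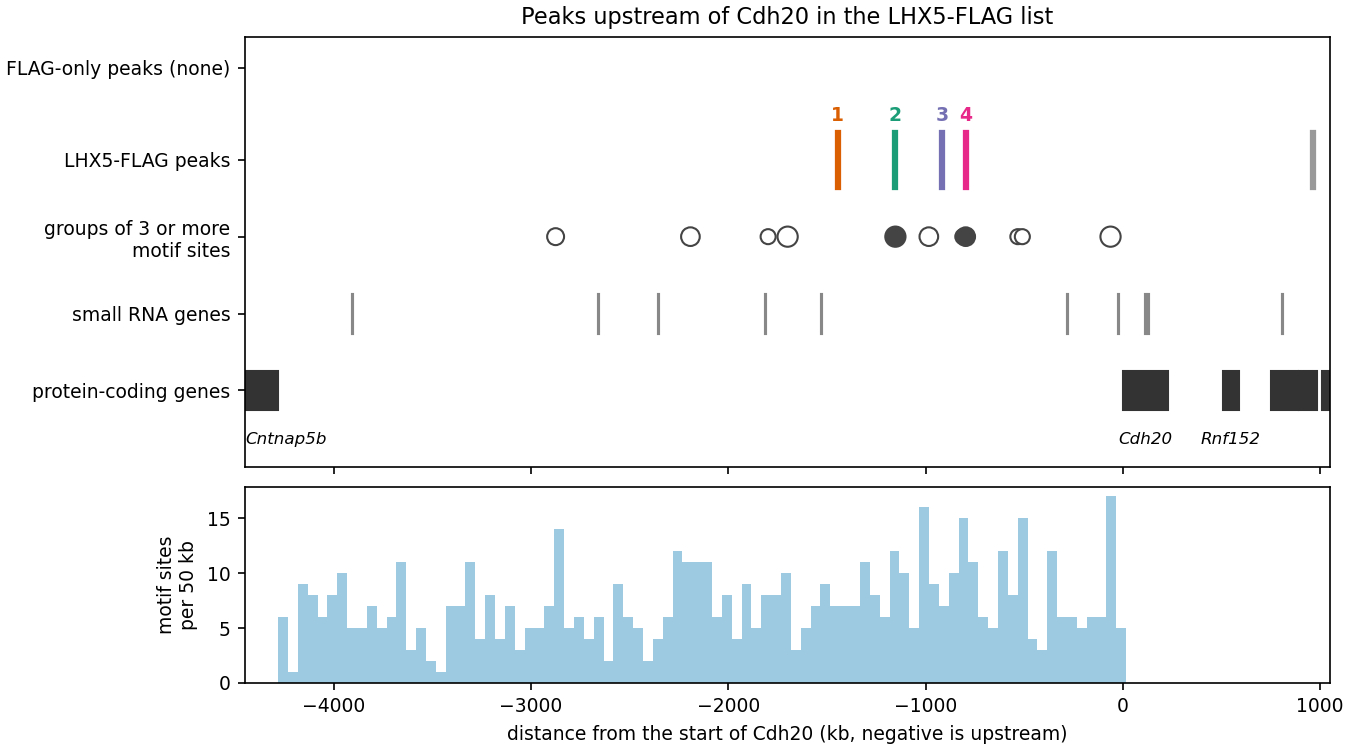
Map of the region upstream of *Cdh20* (x axis, kb from the gene start). Rows show protein-coding genes, small RNA genes, groups of 3 or more motif sites within 100 bp (larger circles have more sites, filled circles lie in a peak) and LHX5-FLAG peaks (1 to 4, and in grey the next peak, ticks wider than the peaks), and no FLAG-only peak is in the region. Bars give motif sites per 50 kb between *Cntnap5b* and *Cdh20*, and 2 of the 11 groups lie in peaks.

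The motif was common in the interval outside the peaks. Between *Cntnap5b* and *Cdh20* there were 619 motif sites, of which 11 lay in the peaks (1.78%), against 609 of 294032 in the genome (0.207%). For the core TAATTA it was 17 of 2168 (0.784%), against 0.0803% in the genome. Since the interval was chosen for its number of peaks, these shares only describe it. Places where at least 3 motif sites begin within 100 bp, a measure chosen after the values were seen, were rarer. There were 11 in the interval, and 2 of them, in peaks 2 and 4, lay in a peak. Over the genome 117 of 4834 such places did, or 2.42%.

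The 6 places with 5 or more motif sites are shown for comparison, with 10 bp added on each side and capitals for the motif, from the farthest to the nearest to *Cdh20*. Only the third and the last but one lie in a peak, peak 2 and peak 4.
chr1:104473041-104473084, no peak: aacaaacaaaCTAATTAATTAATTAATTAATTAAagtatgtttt
chr1:104965919-104965974, no peak: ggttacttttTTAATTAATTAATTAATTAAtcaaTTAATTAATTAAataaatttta
chr1:105512314-105512373, peak 2: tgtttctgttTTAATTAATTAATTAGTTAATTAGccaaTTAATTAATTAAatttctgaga
chr1:105681839-105681886, no peak: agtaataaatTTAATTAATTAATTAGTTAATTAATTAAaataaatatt
chr1:105868814-105868876, peak 4: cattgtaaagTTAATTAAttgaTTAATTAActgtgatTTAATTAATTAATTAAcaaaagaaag
chr1:106603066-106603117, no peak: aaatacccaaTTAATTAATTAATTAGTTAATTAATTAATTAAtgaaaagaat

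The places in peaks had 6 and 5 motif sites, and those outside had between 5 and 6 as well. From the first site to the last they measured 40 and 43 bp in the peaks and between 24 and 36 bp at the places shown outside. Over all 9 places outside, which include places with 3 or 4 sites, the range was 16 to 36 bp. In the peaks the sites were broken up by other bases. Outside, the place at 104965929 to 104965964 was broken up as well, as were some places with 3 sites, while several others were unbroken. Breaks in the sites therefore did not set the places in peaks apart. The place at 105681849 to 105681876 lay between peaks 2 and 3 and had 5 sites, with 95.3% of the 32-bp words in the 180 bp around it at a single place, the same share as at the place in peak 2. The place nearest to *Cdh20*, 62.0 kb upstream, had 6 sites in sequence of which 36.2% of the words occurred once. At 3 of the 9 places outside peaks all of the words occurred once, as at the place in peak 4. Each of these had 3 motif sites and is not among the places shown. At the places shown outside peaks the share was between 36.2% and 95.3%. The lists do not tell a place without protein from one below the cutoff of peak calling.

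The nearest downstream method gives a gene the sequence for which no other downstream start is nearer, and *Cdh20* has much of it. It was the nearest downstream protein-coding gene for 3.34 Mb, the 12th largest such territory of 22218 genes (median 46.2 kb). Its 4 peaks came to 1.2 per Mb of territory (95% exact Poisson interval 0.327 to 3.07), and the whole list to 0.205 per Mb of genome (0.188 to 0.223). The intervals do not allow for the choice of *Cdh20* by its number of peaks, so these densities only describe it. The genes most like it, described below, were also taken by their number of peaks, and their densities lay on both sides of 1.2. They were 3.71 per Mb for *Gm10479*, 1.55 for *Rpl24*, 1.23 for *Gm9885*, 1.16 for *Nudcd2* and 0.791 for *Nudt12*. Of the 27 genes with at least 3 Mb, 3 had a peak, the others being *Gm4064* and *Gm14345* with 1 each (named after the values were seen). In this class all 6 peaks came to 0.0598 per Mb. Genes with less than 0.1 Mb had 0.268 peaks per Mb. These lengths, and the rank of *Cdh20* by territory, count unsequenced bases, where no peak can lie. Their share was not measured by class, so the densities of the classes cannot be compared. The interval between *Cntnap5b* and *Cdh20* holds 0 unsequenced bases.

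Other classical cadherins were assigned LHX5-FLAG peaks too. Of 17 genes of this family, *Cdh20* left out because its peaks chose it, 4 had one (23.5%), beside 2.3% of the 22225 protein-coding genes. These 4 have large territories, with a median of 1.55 Mb against 0.102 Mb for the other 13. Among all genes with at least 1 Mb, 18.2% had a peak, and among these cadherins with at least 1 Mb, 4 of 9 did. The number with a FLAG-only peak was 0 of 17, beside 0.189% of all protein-coding genes.

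*Cdh6*, *Cdh7* and *Cdh8* encode type II cadherins of the nervous system and other tissues, and *Cdh5* the cadherin of blood vessel endothelium. Each had 1 peak, and each of these peaks was far away. The *Cdh7* peak lay on the same chromosome as *Cdh20*, 876803 bp from its gene, without TAATTA and with 42.1% GC. The *Cdh6* peak lay 1086181 bp away and held 1 motif site, 2 cores and 25.5% GC. The *Cdh8* peak lay 1977151 bp away and held 3 motif sites, 4 cores and a TTAA run of 18 bp. Its GC content was 26.7%, so both peaks were AT-rich, as were peaks 3 and 4 of *Cdh20*. The *Cdh5* peak, 1986746 bp away, held no core, and 0.0% of its 32-bp words occurred once, with up to 5230 copies of a word. A further peak overlapped *Cdh8* but was assigned to *A330008L17Rik*, and its words occurred up to 389 times.

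**Figure D5:**
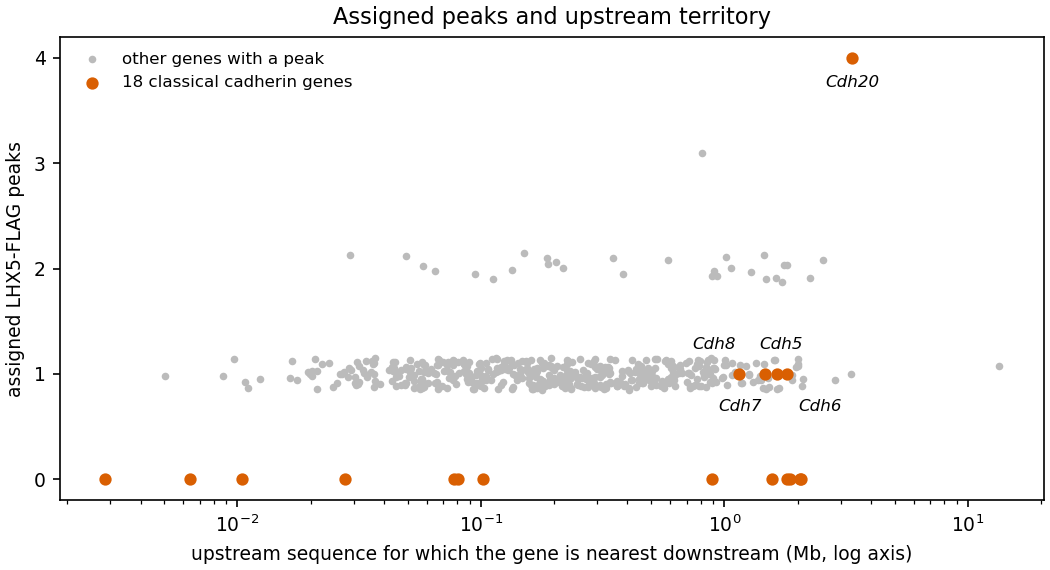
Number of assigned LHX5-FLAG peaks (y axis) against the length of sequence for which a gene is the nearest downstream protein-coding gene (x axis, Mb, log scale). Orange points are the 18 classical cadherin genes, and grey points are the other genes with a peak, spread slightly in height. *Cdh20* has 4 peaks on 3.34 Mb, and the cadherins with 1 peak have between 1.15 and 1.8 Mb.

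The genes most like *Cdh20* were taken as those with the most peaks, ties going to the gene whose nearest peak was farthest. *Gm10479* on chromosome 12, a predicted gene, had 3 peaks between 197700 and 610443 bp away, of which 2 held the motif. Of the 32-bp words in these 3 peaks, 0.0%, 14.8% and 31.8% occurred once in the genome. *Gm9885*, *Nudcd2*, *Nudt12* and *Rpl24* had 2 peaks each. The nearest peak of *Rpl24*, which encodes a protein of the large ribosomal subunit, was 791964 bp away, and that of *Gm9885* 1283221 bp. The motif was in 1 peak each of *Nudcd2* and *Rpl24* and in 0 peaks of *Gm9885* and *Nudt12*. With *Cdh20* these 4 are all 5 genes of the list that had at least 2 peaks and all of them over 500 kb away. *Cdh20* differed from them in the number of peaks, which was the reason for its choice, and its 649268 bp span lay between the 14760 bp of *Nudt12* and the 954418 bp of *Rpl24*.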

How the data were processed

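Anti-FLAG ChIP-Seq libraries of LHX5-FLAG and FLAG-only Neuro2a cells were grouped by their labels. Mapping by the authors was to mm9, with Bowtie. Peaks against input came from MACS, run with M-FOLD 10 and a cutoff of 1e-05, and genes from PeakAnalyzer 1.4. Versions of the first tools, their annotation and the handling of repeated or duplicate reads are not given in the sources used here. What the authors deposited are positions and distances in bp, and these were not changed. Depth is unknown. Inputs were not analysed here.

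Sequences and genes were taken from NCBIM37, the mm9 assembly, and GENCODE mouse release 1. For the *Cdh20* peaks the distance from midpoint to gene start equalled the deposited one to within 1 bp. Peak ends were counted as included. The territory of a gene is the sequence, unsequenced bases included, whose nearest downstream protein-coding transcript start is its own. Motif search and territories were tested on simulated data. The scripts ran on numba 0.67.0, pysam 0.24.0, pandas 2.3.3, scipy 1.17.1, numpy 2.4.6 and Python 3.11.15.

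No test was made, since each condition has 1 library and the members were chosen by their number of peaks. The members, the lists and the measures were chosen with earlier results of these data known. Groups of motif sites, TTAA runs, territory classes and the bases beside the cores were added after values were seen. Named genes were *Cdh20*, its neighbours, cadherins with a peak, and the up to 5 genes most like it.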

Additional observations from a re-analysis of the deposited data

How the results depend on the processing

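The number of *Cdh20* peaks stayed at 4 when the nearest start in either direction was used and when peaks within 10 kb were merged. It fell to 2 with assignments up to 1 Mb, which drops peaks 1 and 2, to 0 with assignments up to 100 kb, and to 0 when genes of any type counted, since small RNA genes in the interval then come first. In that last setting the density of its territory was likewise 0 peaks per Mb. The share of all LHX5-FLAG peaks with the motif rose to 42.4% with TAATTA and to 49.2% with 1 mismatch allowed, which also reaches FLAG-only peaks (30.4%). Of the 8 windows beside the *Cdh20* peaks, 1 held the motif at 50 kb instead of 10 kb, and 1 held TAATTA. The number of *Cdh20* peaks with the motif was 3 instead of 2 with TAATTA and with 1 mismatch, and 2 in the other settings. Of the 22 alternatives, 14 stayed within 1.5 times a count, within the 95% interval of a share or within 1 SD over the peaks of a median. No paired analysis was possible because each group has 1 library and no result comes from a test. Without read counts, a stricter peak cutoff could not be tried.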

Other observations

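Few places in the list have 4 neighbouring peaks as close as those of *Cdh20*. Of 484 runs of 4 consecutive LHX5-FLAG peaks on a chromosome, the *Cdh20* run of 649268 bp was the 6th shortest (median 10.7 Mb). It was the 1 run in which all 4 peaks had the same assigned gene. This sharing of 1 gene is fixed by the choice of *Cdh20* and adds nothing to it, since every other gene had 3 assigned peaks or fewer. The 5 shorter runs lay on chromosome 10, with peaks assigned to *Slc2a12* and others, on chromosome 5, with *Cdk8*, and on chromosome 12, with *Taf1b* or *Gm10479* (named after the values were seen). All 3 gaps inside the *Cdh20* run were under 300 kb, as were 11.1% of the 524 gaps in the list. Since *Cdh20* was chosen for its number of peaks, these values describe the locus and are not independent of the choice.

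Within 2 kb on either side of the midpoints, TAATTA occurred 2 times around peak 1, 8 times around peak 2, 10 times around peak 3 and 7 times around peak 4. Around peak 1 both places lay 1850 and 1650 bp to the left (centres of 100-bp bins), outside the peak.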
